A study of Mus musculus with 16 samples.

Results

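The genes described here are 10 heat shock genes, Hspa1a, Hspa1b, Hspa8, Hsph1, Dnajb1, Hsp90aa1, Hsp90ab1, Hspb1, Hspd1 and Hspe1, taken by name from the 41740 gene rows of each table. All 10 passed the filter on low counts, which kept 15267 genes for testing. The products of 8 of them act mainly in the cytosol and nucleus, whereas those of Hspd1 and Hspe1 work in the mitochondrial matrix, so the set is called heat shock genes and not cytosolic. Transcripts were sequenced from whole ileal wall of male STAM mice, in which streptozotocin given at day 2 of age, followed by high-fat feeding from week 4, produces diabetes with fatty liver disease. All mice carried the floxed insulin receptor gene (InsR-flox) and were sampled at 20 weeks of age. The 4 Control-STAM-nonINS mice lacked the Villin-Cre transgene (labelled Vilin-Cre(-); InsR-flox) and received no insulin, the 6 Control-STAM-INS mice had that genotype and received insulin 2 times a day from 6 weeks of age, and the 6 ieIRKO-STAM-INS mice carried Villin-Cre (labelled Vilin-Cre(+); InsR-flox) and received insulin. The study's methods state that normal saline was given to control mice in this experiment, without naming the group. Villin-Cre is active in the intestinal epithelium, while the whole wall also holds muscle, nerve, vessel and immune cells in which the receptor gene stays intact. The groups are called nonINS, INS and ieIRKO below, in the order given.

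Heat shock proteins are chaperones: they bind unfolded or partly folded proteins, keep them from aggregating and help them to fold. HSP70 proteins work in a cycle of ATP binding and hydrolysis that J-domain proteins such as Dnajb1 start and that nucleotide exchange factors such as Hsph1 (HSP110) reset, and clients such as kinases and steroid receptors pass on to HSP90. When misfolded protein accumulates, heat shock factor 1 (Hsf1) forms trimers that bind repeats of the unit nGAAn in promoters, and Hspa1a, Hspa1b, Hsph1, Dnajb1 and Hspb1 are classical targets. Hspa8 and Hsp90ab1, in contrast, are the constitutive forms that most cells express in the absence of stress. In the gut, chaperones are known to be made by the epithelium in response to heat, injury and bacterial products.

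Total counts ranged from 13288018 to 22215382 per library over the 16 libraries, and each heat shock gene had from 99 counts (Hspa1a in the lowest library) to 35916 counts (Hspa8 in the highest). Summed epithelial markers were at 7830 CPM (counts scaled to a library of 1000000 after normalisation by the trimmed mean of M values, TMM) in nonINS replicate 4, at 9547 CPM in ieIRKO replicate 5 and at 11027 to 14520 CPM in the other libraries. Summed ileal enterocyte markers ranged from 8235 CPM in ieIRKO replicate 5 to 30602 CPM, and none of 6 pancreatic acinar markers passed the filter. The targeted gene Insr was at 57.5 to 90.4 CPM in the libraries labelled ieIRKO at 49.9 to 76.1 CPM in INS and at 88.3 to 116 CPM in nonINS, so no decrease was seen between the insulin-treated groups. Whole-gene counts from the whole wall do not resolve a floxed exon in the epithelium, so the genotype label could not be checked here, and every direction given for the libraries labelled ieIRKO rests on the label. Replicates 2 and 6 of ieIRKO stood apart from the other 14 libraries in several heat shock genes. Differences of the heat shock genes, and of co-chaperones that passed the significance threshold, that rest on this pair are given with and without it. The pair was noticed after the values were seen.

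Levels were compared between genes as CPM per kilobase of merged exons in GENCODE M21. The merged length counts every annotated exon and is long for genes with several transcript forms, such as Hsph1. In INS, Hsp90ab1 was highest at 394 ± 74.4 CPM per kilobase (SD, n = 6), followed by Hspa8 at 338 ± 28.3 CPM per kilobase. The ranges of these constitutive chaperones overlapped. Hspd1 (114 ± 26.7 CPM per kilobase), Hsp90aa1 (78.2 ± 15.7 CPM per kilobase), Hspe1 (75.6 ± 16.5 CPM per kilobase) and Hspb1 (37.3 ± 5.48 CPM per kilobase) came next. The libraries of Hspd1, Hsp90aa1 and Hspe1 overlapped between neighbours in this order, and those of Hspb1 lay below them. Dnajb1 was at 16.1 ± 1.95, Hspa1b at 9.58 ± 1.77, Hsph1 at 9.40 ± 1.72 and Hspa1a at 3.99 ± 0.593 CPM per kilobase, and of these neighbours only Hspa1b and Hsph1 overlapped. In nonINS, the order by mean level was the same, with Hsph1 (5.83 ± 2.26 CPM per kilobase, n = 4) further below Hspa1b (9.33 ± 2.11 CPM per kilobase). In ieIRKO, the mean of Hspa1b (20.7 ± 21.2 CPM per kilobase, n = 6) lay above that of Dnajb1 (16.8 ± 4.81 CPM per kilobase), within a spread as large as its mean.

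**Figure D1:**
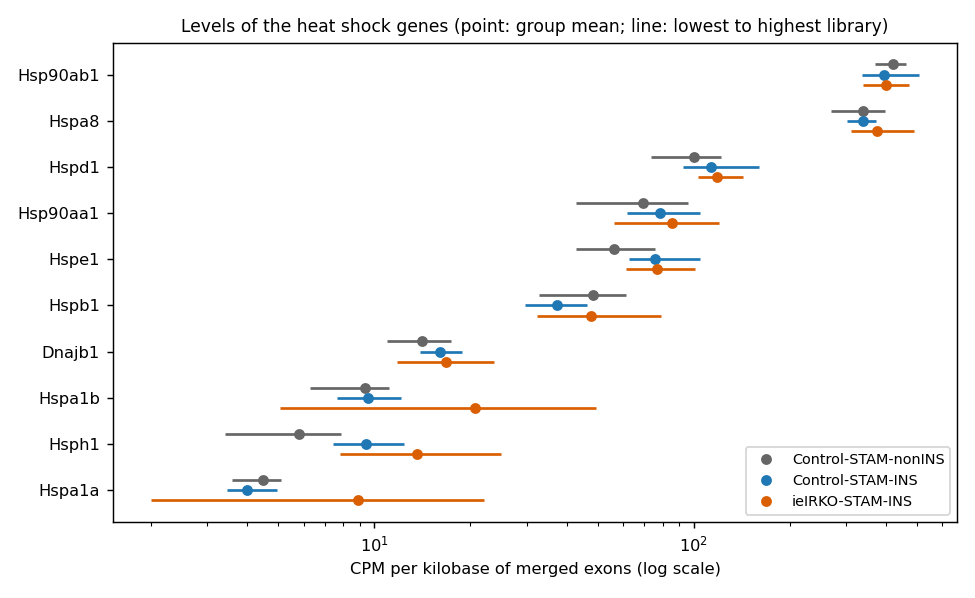
Levels of the 10 heat shock genes as CPM per kilobase of merged exons on a log axis, with the mean of each group as a point and a line from its lowest to its highest library. The constitutive Hsp90ab1 and Hspa8 lie highest and the inducible Hspa1a, Hsph1 and Hspa1b lowest, and the lines of those 3 genes are longest in ieIRKO.

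Hspa1a (chr17:34969190-34972156, minus strand, GRCm38) and Hspa1b (chr17:34956436-34959238, minus strand) encode the inducible HSP70 and are near-identical neighbours. Their longest open reading frames of 1926 and 1929 bases differed by 10 edits (99.5% identity), and 47.1% of the 100-base windows of the Hspa1a transcript were also present in that of Hspa1b. How reads that fit both genes were assigned is not given in the sources used here, so the split between them is uncertain and their sum is given beside them. Hspa1b took 62.4% to 75.4% of the summed counts in each library.

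The promoters are shown because the unit nGAAn, which Hsf1 is known to bind, can be read in some of them, and because those of Hspa1a and Hspa1b are almost alike. RefSeq promoter windows (GRCm38.p6, 250 bases before to 50 bases after the annotated start) were matched for 7 of the 10 genes, with no entry matched for Hspa8, Hsp90aa1 and Hsp90ab1. The 250 bases before the Hspa1a start (chr17:34972157-34972406, minus strand) and the Hspa1b start (chr17:34959239-34959488, minus strand) are printed in the direction of transcription, with a pair of inverted heat shock element units in capitals.
Hspa1a: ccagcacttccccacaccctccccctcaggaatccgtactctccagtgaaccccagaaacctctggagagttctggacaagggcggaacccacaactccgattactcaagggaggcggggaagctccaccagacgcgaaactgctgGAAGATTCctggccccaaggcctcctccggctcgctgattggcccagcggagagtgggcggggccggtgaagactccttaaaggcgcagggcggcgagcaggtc
Hspa1b: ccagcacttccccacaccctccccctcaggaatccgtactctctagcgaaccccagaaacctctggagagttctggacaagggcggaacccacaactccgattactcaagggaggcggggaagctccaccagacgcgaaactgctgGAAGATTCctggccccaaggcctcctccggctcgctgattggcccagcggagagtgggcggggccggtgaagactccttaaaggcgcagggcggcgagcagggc
These promoters were almost the same: counted from the 5′ end of the window, the 3 substitutions from Hspa1a to Hspa1b were C44T, T47C and T249G. Both held the same match, GAAGATTC, at positions -104 to -97 relative to the start.

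For the other genes, only the stretch with the units is printed, again in the direction of transcription and with the matched units in capitals. The first Hsph1 stretch (chr5:149636351-149636380, minus strand) lies before both RefSeq starts of this gene and spans the GENCODE start, so that its capitals fall inside the GENCODE gene, and the second (chr5:149636287-149636308, minus strand) lies just after the RefSeq starts. The Hspb1 stretch (chr5:135887789-135887848, plus strand) lies before its start. The last stretch (chr1:55088053-55088082, plus strand) lies 66 to 95 bases before the RefSeq start of Hspe1, inside the annotated Hspd1 span, and is printed on the Hspe1 strand. RefSeq gives 2 starts for Hspd1, and this stretch lies before the inner one, whereas the 250 bases before the outer one (chr1:55088244-55088493, minus strand) held no match. These genes are transcribed away from each other, and their annotated spans share 112 bases.
Hsph1, before the RefSeq starts: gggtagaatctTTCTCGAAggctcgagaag
Hsph1, after the RefSeq starts: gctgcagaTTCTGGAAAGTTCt
Hspb1: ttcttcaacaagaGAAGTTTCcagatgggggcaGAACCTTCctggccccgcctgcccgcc
Hspe1 and Hspd1: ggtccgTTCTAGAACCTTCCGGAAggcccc
Hsph1 held the pair TTCTCGAA before its RefSeq starts and the triple TTCTGGAAAGTTC after them. Hspb1 held the pairs GAAGTTTC and GAACCTTC. The stretch shared by Hspe1 and Hspd1 held 2 overlapping triples. No match to either motif was found in the Dnajb1 windows.

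The motifs searched were the pairs GAANNTTC and TTCNNGAA, each its own reverse complement, and the triple made of GAANNTTC followed directly by NNGAA, with its reverse complement, which contains both pairs. A pair was present for 6 of the 7 genes and a triple for 3 of them, counting a gene with several windows once. The matches of Hspd1 and Hspe1 are the same stretch counted for both genes, and Hspa1a and Hspa1b are near-identical copies. These counts therefore hold fewer separate sites than genes. Among all 27025 genes with a window, 17% held a pair and 0.662% held a triple, and among the 32851 windows the shares were 15.1% and 0.603%. Of the genes highest in replicates 2 and 6 of ieIRKO, Hspa1a, Hspa1b and Hsph1 had matches, Dnajb1 had none, and Hspa8 and Hsp90aa1 had no window. Hspb1, Hspd1 and Hspe1, which were not among them, had matches. A match describes these letters and is not a measurement of binding.

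The inducible HSP70 genes had the widest ranges over the 16 libraries, through replicates 2 and 6 of ieIRKO. Within the control groups, the coefficient of variation of Hspa1a was 16.2% in nonINS and 14.9% in INS, below that of Hsph1 (38.9% and 18.2%). That of Hspa1b lay below the value of Hsph1 in nonINS and slightly above it in INS. In nonINS, Hspa1a was at 15.1, 14.9, 12.4 and 10.6 CPM in replicates 1 to 4. In INS it ranged from 10.3 to 14.7 CPM with a median of 11.4 CPM, and in ieIRKO from 5.93 to 65.7 CPM with a median of 8.90 CPM. Replicates 2 (65.7 CPM) and 6 (62.0 CPM) of ieIRKO were above every other library, whereas its replicates 3, 4 and 5 were below every library of both control groups. Hspa1b was also highest in the pair. It was at 27.4, 31.2, 28.4 and 17.6 CPM in nonINS and at 21.3 to 33.9 CPM (median 25.9 CPM) in INS. In ieIRKO it was at 139 and 130 CPM in replicates 2 and 6 and at 14.2 to 28.4 CPM in the other replicates.

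Summed over both genes, the inducible HSP70 signal averaged 39.4 ± 7.77 CPM (SD, n = 4) in nonINS, 38.7 ± 5.71 CPM (n = 6) in INS and 84.3 ± 88.5 CPM (n = 6) in ieIRKO. The SD of the last group exceeded its mean. Against the median of the other 14 libraries (36.1 CPM), the sum was 5.66 times higher in replicate 2 and 5.31 times higher in replicate 6. Hspa8 (chr9:40800984-40810087, plus strand), the constitutive HSC70, was at 1161, 1704, 1525 and 1457 CPM in nonINS and at 1301 to 1604 CPM (median 1482 CPM) in INS. In ieIRKO it ranged from 1339 to 2110 CPM with a median of 1475 CPM, and replicates 2 (1898 CPM) and 6 (2110 CPM) were again the highest of the 16 libraries, but by a smaller factor of 1.30 and 1.44 over the median of the others.

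Hsph1 (chr5:149614287-149636376, minus strand) encodes HSP110, the nucleotide exchange factor of HSP70. It was at 24.8, 55.7, 56.9 and 31.8 CPM in nonINS, and at 54.1 to 90.2 CPM (median 65.9 CPM) in INS. In ieIRKO it was at 181 and 169 CPM in replicates 2 and 6, which is 3.03 and 2.82 times the median of the other 14 libraries, and at 56.8 to 65.9 CPM in the other replicates. The lowest level of the 16 libraries was in nonINS replicate 1, and 5 of 6 INS libraries lay above all nonINS libraries.

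Dnajb1 (chr8:83608193-83612653, plus strand) encodes HSP40, a J-domain protein that delivers clients to HSP70. Its levels were 44.4, 55.5, 45.4 and 35.1 CPM in nonINS, 44.4 to 60.4 CPM (median 49.9 CPM) in INS and 37.7 to 76.1 CPM (median 51.6 CPM) in ieIRKO. Replicates 2 (65.8 CPM) and 6 (76.1 CPM) of the last group were the highest of all libraries, and the other libraries of the 3 groups overlapped.

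The cytosolic HSP90 genes differed from each other in the pair of libraries. Hsp90aa1 (chr12:110690605-110702728, minus strand), the inducible alpha form, was at 235, 311, 378 and 168 CPM in nonINS, at 243 to 413 CPM (median 285 CPM) in INS and at 221 to 473 CPM (median 301 CPM) in ieIRKO. Replicates 2 and 6 of ieIRKO were the highest, 1.67 and 1.58 times above the median of the others. Hsp90ab1 (chr17:45567775-45573271, minus strand), the constitutive beta form, was at 1213, 1345, 1389 and 1108 CPM in nonINS and at 1009 to 1524 CPM (median 1076 CPM) in INS. It was at 1367 and 1421 CPM in replicates 2 and 6 of ieIRKO, and INS replicate 3, at 1524 CPM, was higher than both.

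Hspb1 (chr5:135887919-135889563, plus strand) encodes HSP27, a small chaperone that holds unfolded proteins without ATP and binds actin. It did not follow the HSP70 genes across libraries. Its levels were 63.1, 45.2, 57.0 and 33.8 CPM in nonINS, 30.6 to 47.9 CPM (median 37.9 CPM) in INS and 33.2 to 81.6 CPM (median 37.3 CPM) in ieIRKO. The highest libraries were replicates 6 (81.6 CPM) and 5 (72.2 CPM) of ieIRKO, while its replicate 2 was at 35.8 CPM, within the range of INS.

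Hspd1 (chr1:55077835-55088243, minus strand) and Hspe1 (chr1:55088132-55091307, plus strand) encode HSP60 and HSP10, the barrel and the lid of the mitochondrial chaperonin. Hspd1 was at 263, 278, 321 and 194 CPM in nonINS, at 245 to 424 CPM (median 269 CPM) in INS and at 272 to 377 CPM (median 317 CPM) in ieIRKO. Hspe1 was at 76.1, 81.9, 111 and 63.3 CPM in nonINS, at 92.8 to 154 CPM (median 101 CPM) in INS and at 90.3 to 149 CPM (median 110 CPM) in ieIRKO. Both were highest in INS replicate 3 and lowest in nonINS replicate 4, and neither stood out in ieIRKO replicates 2 and 6.

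**Figure D2:**
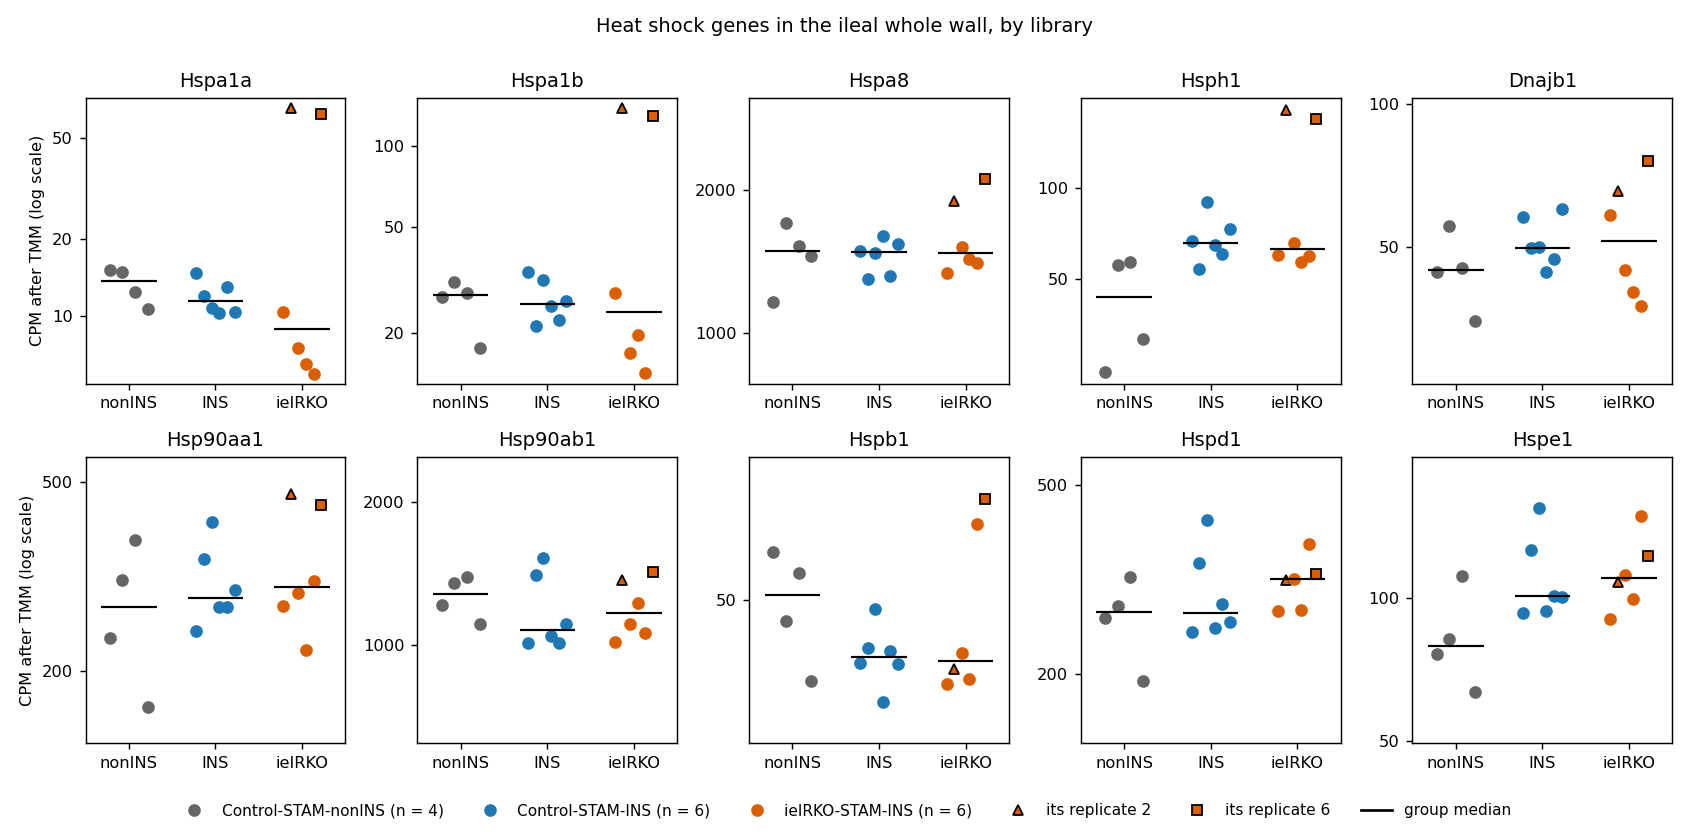
CPM after TMM normalisation of each heat shock gene on a log axis, with each library as a point, the group median as a line, and replicates 2 and 6 of ieIRKO as a triangle and a square. These libraries are the highest of 16 in Hspa1a, Hspa1b, Hspa8, Hsph1, Dnajb1 and Hsp90aa1, and lie among the others in Hspd1 and Hspe1.

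Replicates 2 and 6 of ieIRKO were thus the 2 highest of the 16 libraries in 6 of the 10 heat shock genes, against 1.55% of all 15267 tested genes (237 genes). This count describes a pair of libraries chosen by their values and carries no test. Of 21 HSP70 co-chaperones and relatives on a list chosen by function, Dnaja1, Hspa4l and St13 had the same arrangement, and of 13 HSP90 co-chaperones Ahsa1, Ahsa2, Chordc1 and Cacybp had it. None of 6 small heat shock proteins, 4 tested heat shock factor genes, 10 mitochondrial chaperones and proteases, 8 TRiC chaperonin subunits or 10 immediate early genes had it, and of 13 chaperones of the endoplasmic reticulum (ER) only Hspa5 did. The pair differed in the ER chaperones, since replicate 6 alone was the highest of all libraries in 9 of the 13, against 7.79% of all tested genes. Genes in this paragraph other than the heat shock genes were named after their values were seen.

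The J-domain protein gene Dnaja1 was at 352 and 391 CPM in these libraries and at 130 to 249 CPM in the other 14. Chordc1, which encodes an HSP90 co-chaperone, was at 89.9 and 83.1 CPM against 31.4 to 53.1 CPM in the others. Ahsa1, an activator of the HSP90 ATPase, was at 88.2 and 89.5 CPM against 59.7 to 86.1 CPM, a small separation. The transcript of Hsf1 itself was 1.12 and 1.01 times the median of the others, and Hspa9, the mitochondrial HSP70, was 0.998 and 1.03 times that median.

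The general measures of the libraries were compared in the same way. Replicates 2 and 6 had 13947629 and 17532686 counts. Their mitochondrially encoded share was 4.49% and 4.77%, below the 5.27% to 6.29% of the other ieIRKO libraries, and replicate 2 was the lowest of the 16. The 10 libraries of the control groups were at 4.61% to 6.72%. Their summed immediate early gene level was 654 and 698 CPM, within the range of 418 to 2168 CPM over the 16 libraries. Summed ileal enterocyte markers were at 14748 and 17237 CPM in the pair and at 8235 to 26866 CPM in the other ieIRKO libraries, with replicate 2 next to the lowest of all libraries. Summed B and plasma cell markers were at 1655 and 2086 CPM in the pair and at 1845 to 3115 CPM in the other ieIRKO libraries. The part of these measures in the heat shock levels was not tested. Whether the pair shared a cage, a day of sampling or a preparation was not tested.

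**Figure D3:**
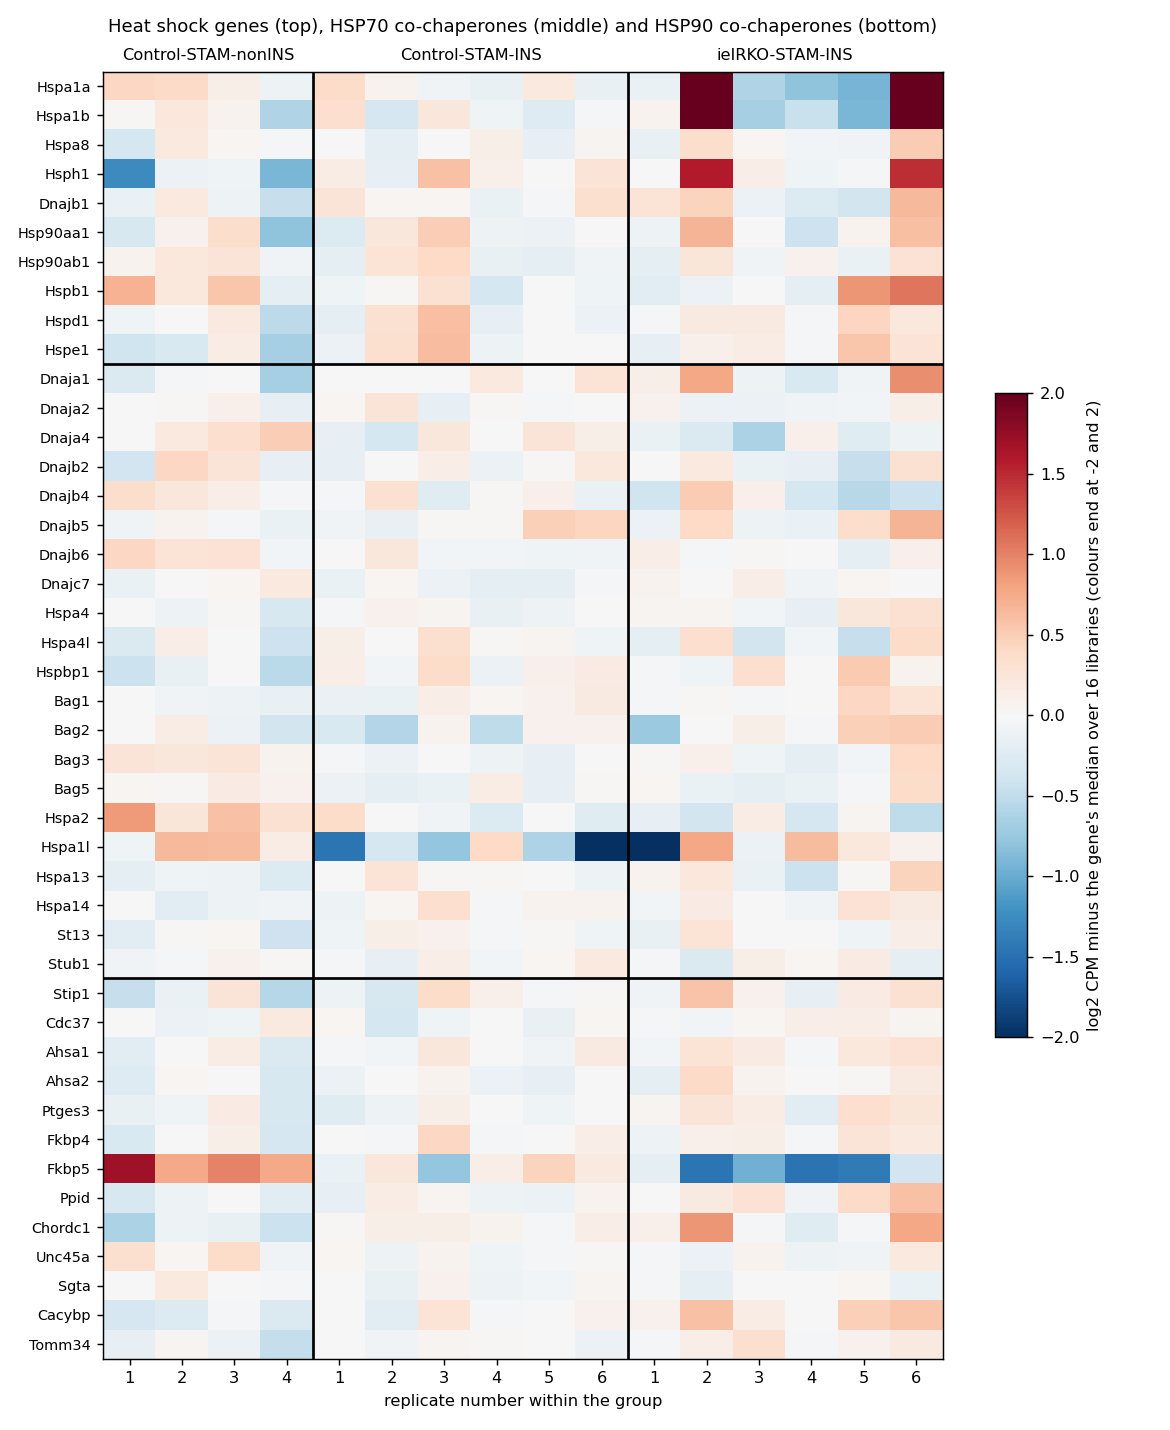
Log2 CPM of each gene minus its median over 16 libraries, by library, for the 10 heat shock genes (top), 21 HSP70 co-chaperones and relatives (middle) and 13 HSP90 co-chaperones (bottom). Columns 2 and 6 of ieIRKO are red in Hspa1a, Hspa1b, Hsph1, Hsp90aa1, Dnaja1 and Chordc1, and colours end at -2 and 2.

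The first comparison, INS against nonINS, asked what insulin treatment changed in mice of the control genotype. None of the 10 heat shock genes passed the threshold of an adjusted p under 0.05 in edgeR's quasi-likelihood test with Benjamini-Hochberg adjustment over all tested genes, against a background of 10.5% of genes called (3.73% higher and 6.76% lower). At an unadjusted p under 0.05 there was 1 gene, Hspe1, against 25.4% of all tested genes, and DESeq2 also called 0. With only the groups compared in the fit, and also with a replicate block, 3 genes (Hspe1, Hsph1 and Hspb1) had an unadjusted p under 0.05. Neither fit called any of them, and the share of all tested genes at that unadjusted p was not computed there. Hspe1 had a log2 fold change of 0.42 (SE 0.174, 95% confidence interval 0.06 to 0.79, edgeR adjusted p = 0.133), and 2 of 6 treated libraries were above all untreated ones. Its adjusted p was 0.0463 (log2 fold change 0.60) without nonINS replicate 3 and 0.330 (0.31) without nonINS replicate 4. The latter library, which had the lowest epithelial marker sum, was the lowest of the 16 in Hspd1, Hspe1, Hsp90aa1 and Dnajb1, and the part of that sum in these levels was not tested. Hsph1 had a log2 fold change of 0.69 (SE 0.380, edgeR adjusted p = 0.274), with an exact two-sided permutation p of 0.0143 where 0.00476 is the smallest possible.

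The other heat shock genes had smaller differences under insulin. Hspb1 had a log2 fold change of -0.37 (95% confidence interval -0.93 to 0.18), and the summed Hspa1a and Hspa1b had one of -0.02 (95% confidence interval -1.36 to 1.32). The latter interval includes more than a doubling in either direction. Its spread was estimated over all 16 libraries, among them replicates 2 and 6 of ieIRKO, which are outside this comparison. The part of that pair in the width was not tested. For the sum, the libraries compared were at 28.2 to 46.1 CPM in nonINS and at 33.3 to 48.6 CPM in INS. Over the 10 genes the median log2 fold change was 0.11, beside -0.00 over all tested genes, and 6 of 10 were positive. No heat shock gene had groups that did not overlap, against 10.6% of all tested genes.

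The second comparison asked what the loss of the epithelial receptor changed under insulin. None of the 10 genes was called between ieIRKO and INS by edgeR, and none had an unadjusted p under 0.05, beside 0.223% of all tested genes called (0.0393% higher and 0.183% lower) and 11.3% at that unadjusted p. DESeq2 called 0 and gave an unadjusted p under 0.05 for Hspa1a and Hspa1b. The log2 fold changes of these genes were 1.15 (SE 0.594, 95% confidence interval -0.13 to 2.42, edgeR adjusted p = 0.497) and 1.11 (SE 0.550, 95% confidence interval -0.08 to 2.29, edgeR adjusted p = 0.479). For their sum the value was 1.12 (SE 0.560, edgeR adjusted p = 0.481), with 2 of 6 ieIRKO libraries above and 3 of 6 below all INS libraries.

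All 10 log2 fold changes in this comparison were positive, with a median of 0.14 beside 0.02 over all tested genes, but the sign rested on replicates 2 and 6. Without that pair, Hspa1a was at -0.66, Hspa1b at -0.44 and their sum at -0.50 on the log2 scale. Without the pair, Hsph1 was at -0.17, Dnajb1 at -0.19, Hsp90aa1 at -0.16, Hsp90ab1 at -0.10 and Hspa8 at -0.03, none of which passed the threshold. Hspb1, Hspd1 and Hspe1 kept a positive value, and the median over the 10 genes was -0.13. With only replicate 2 left out the sum was at 0.64, and with only replicate 6 left out at 0.69. No heat shock gene had groups that did not overlap, against 0.845% of all tested genes.

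The third comparison, ieIRKO against nonINS, differs in both genotype and treatment and shares its libraries with the others. Hsph1 was higher, at 98.7 ± 59.2 CPM (SD, n = 6) against 42.3 ± 16.4 CPM (n = 4), with a log2 fold change of 1.22 (SE 0.386, 95% confidence interval 0.40 to 2.05, edgeR adjusted p = 0.0496). This was 1 of 10 genes called, beside 13.3% of all tested genes (5.74% higher and 7.59% lower), and 5 of 6 ieIRKO libraries were above all nonINS libraries. The exact two-sided permutation test gave p = 0.0571. At an unadjusted p under 0.05 there were 2 genes, Hsph1 and Hspe1, against 29.4% of all tested genes. Leaving out each library in turn gave log2 fold changes of 0.97 to 1.40 and adjusted p-values of 0.0341 to 0.145, and the call was lost in 7 of 10 cases. It was also lost with a replicate block (adjusted p = 0.0679), with no filter (0.0874) and with only the groups compared in the fit (0.135). Without replicates 2 and 6 the log2 fold change was 0.53 (edgeR adjusted p = 0.155).

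Hspa1a had the opposite sign with and without the pair in this comparison. Its log2 fold change was 0.99 (edgeR adjusted p = 0.353) over all libraries and -0.81 (edgeR adjusted p = 0.0120) without replicates 2 and 6, a set of libraries chosen after their Hspa1a values were seen. Hspa1b was at 1.15 and -0.39 on the same scale. Over the 10 genes the median log2 fold change was 0.28, beside 0.01 over all tested genes, with 8 of 10 positive, and without replicates 2 and 6 it was -0.0094 with 5 of 10 positive. Hspe1 had a log2 fold change of 0.45 (SE 0.174, edgeR adjusted p = 0.0933), which differed little without the pair (0.44) and was called without nonINS replicate 3 (0.63, adjusted p = 0.0332). The remaining log2 fold changes ran from -0.08 for Hsp90ab1 to 0.30 for Hsp90aa1, with Dnajb1 at 0.26 and Hspa8 at 0.15. Without the pair, Hsp90ab1 was at -0.19, Hsp90aa1 at 0.016, Dnajb1 at 0.013 and Hspa8 at -0.032. None of the 10 genes had groups that did not overlap, against 8.56% of all tested genes. Of 6 B and plasma cell markers 3 were higher in ieIRKO than in nonINS, with a summed level of 1655 to 3115 CPM against 718 to 1771 CPM, and 4 of 5 tested T cell markers were higher, at 31.8 to 80.9 CPM against 16.4 to 39.0 CPM. Their part in the Hsph1 difference was not tested, and a different share of a cell type and different RNA per cell cannot be told apart in whole wall.

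**Figure D4:**
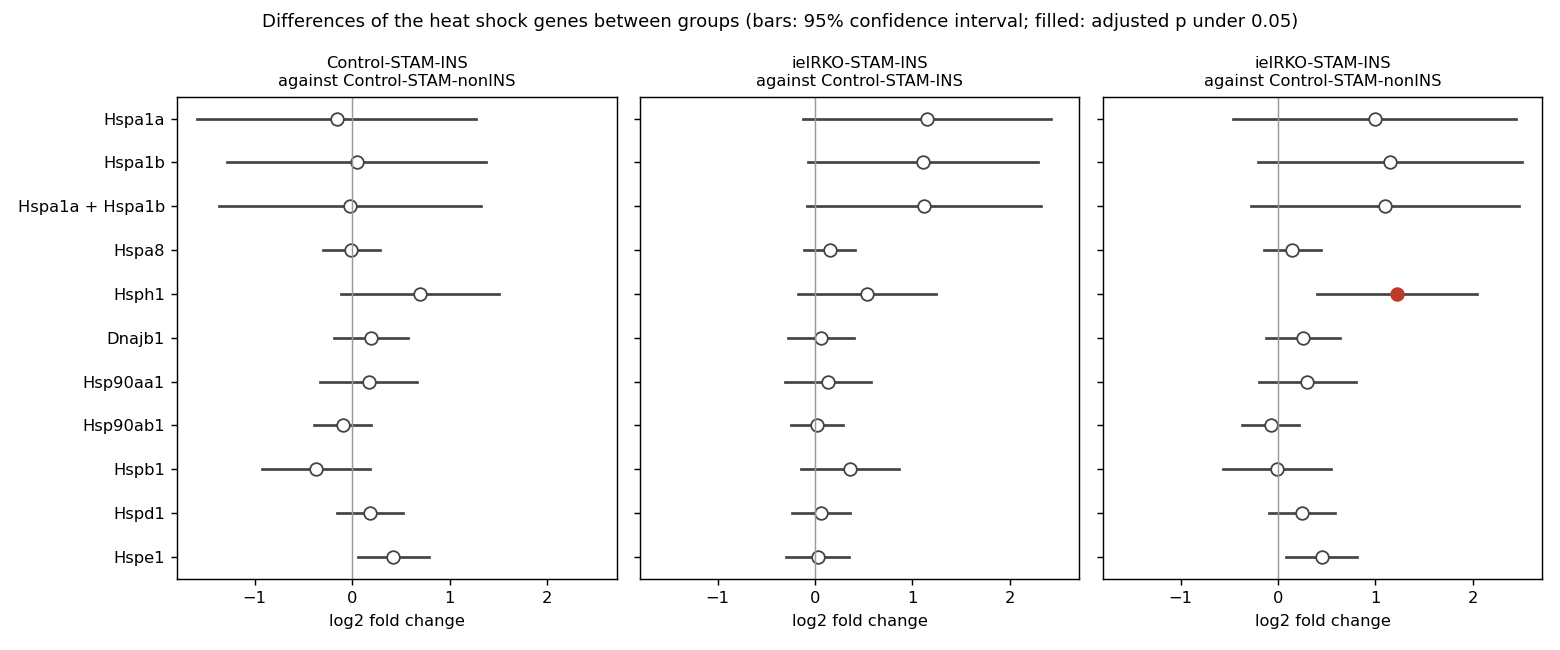
Log2 fold changes of the heat shock genes and of the sum of Hspa1a and Hspa1b in the 3 comparisons, with 95% confidence intervals as bars and an adjusted p under 0.05 as a filled point. Hsph1 in ieIRKO against nonINS is the filled point, and the bars of Hspa1a, Hspa1b and their sum are the widest in each panel. All bars use a spread estimated over all 16 libraries.

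The wider chaperone network was described from lists chosen by function. Of the HSP70 co-chaperones and relatives, edgeR called 0 of 21 higher in any comparison, against 3.73%, 0.0393% and 5.74% of all tested genes in the order of the comparisons above. DESeq2 called Hspbp1 higher in ieIRKO against nonINS (log2 fold change 0.42, DESeq2 adjusted p = 0.0328), beside 1283 of 15267 tested genes. The edgeR adjusted p of Hspbp1 there was 0.0536. Hspa2, an HSP70 relative best known from the testis, was at 42.2 CPM in nonINS, 29.1 CPM in INS and 26.1 CPM in ieIRKO. It fell with insulin (log2 fold change -0.53, edgeR adjusted p = 0.0294) and in ieIRKO against nonINS (-0.69, edgeR adjusted p = 0.00588). Leaving out single libraries ended the former call in 6 of 10 cases (log2 fold change -0.40, adjusted p = 0.135 without nonINS replicate 1) and the latter in 0 of 10. The J-domain gene Dnaja4 fell in the latter comparison (-0.48, edgeR adjusted p = 0.0498), a call that passed in only 3 of 16 alternatives and was lost in 8 of 10 cases with 1 library left out. It was also lost without replicates 2 and 6 of ieIRKO (-0.48, adjusted p = 0.101). Bag3, which links HSP70 to autophagy and is itself an Hsf1 target, had a log2 fold change of -0.27 with insulin (edgeR adjusted p = 0.0787).

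Among 13 HSP90 co-chaperones, Fkbp5, which binds the HSP90 complex of the glucocorticoid receptor and is induced by glucocorticoids, had the largest absolute difference. It was at 457, 238, 282 and 239 CPM in nonINS, at 82.1 to 192 CPM (median 157 CPM) in INS and at 50.4 to 125 CPM (median 62.7 CPM) in ieIRKO. It fell with insulin (log2 fold change -1.05, SE 0.292, edgeR adjusted p = 0.0337) and in ieIRKO against nonINS (-1.99, SE 0.295, edgeR adjusted p = 0.000854). The insulin call passed in 8 of 15 alternatives and was lost without nonINS replicate 1 (-0.78, adjusted p = 0.139), whereas the latter passed in 16 of 16. Between the insulin-treated groups its log2 fold change was -0.94 (edgeR adjusted p = 0.289), and DESeq2 called it there (-0.95, adjusted p = 0.0262). Cacybp (0.56), Chordc1 (0.62) and Ppid (0.41) rose in ieIRKO against nonINS, with edgeR adjusted p-values of 0.00720, 0.0431 and 0.0282. Without replicates 2 and 6 of ieIRKO these log2 fold changes were 0.43, 0.27 and 0.33, with adjusted p-values of 0.0327, 0.126 and 0.0745. Cacybp passed in 16 of 16 alternatives, Ppid in 10 and Chordc1 in 8. Stip1, which bridges HSP70 and HSP90, had a log2 fold change of 0.36 there (edgeR adjusted p = 0.165).

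Of 6 small heat shock proteins, Hspb6, a muscle form, rose with insulin (log2 fold change 0.61, edgeR adjusted p = 0.0409), and no other passed in any comparison of the main fit. The call of Hspb6 was the only one there. With a replicate block, 1 of the 6 passed in ieIRKO against nonINS, beside 633 higher and 982 lower of 15267 tested genes. The insulin call of Hspb6 passed in 6 of 15 alternatives and was lost in 7 of 10 cases with 1 library left out (0.49, adjusted p = 0.133 without nonINS replicate 4). None of 4 tested heat shock factor genes, 10 mitochondrial chaperones and proteases or 8 TRiC subunits was called. Over all tested genes 10.5%, 0.223% and 13.3% were called in the 3 comparisons, so lists of this size would hold few calls at the background share. Hsf1 had a log2 fold change of 0.10 with insulin and 0.22 in ieIRKO against nonINS (edgeR adjusted p = 0.0979). Hspa9, the mitochondrial HSP70, was at -0.06 and 0.03 in these comparisons.

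The ER chaperones, a neighbouring compartment, were measured beside the heat shock genes. With insulin 12 of 13 rose, with a median log2 fold change of 0.51, against 3.73% of all tested genes. In ieIRKO against nonINS 11 of 13 were higher, with a median of 0.54, against 5.74% of all tested genes. The insulin count was 3 without nonINS replicate 4, the library with the lowest epithelial marker sum, and 4 without nonINS replicate 1. The log2 fold changes of the 7 ER chaperones named below were 0.44 to 1.10 over all libraries, 0.36 to 1.05 without the former and 0.48 to 1.01 without the latter. The part of the epithelial marker sum in these differences was not tested. The count in ieIRKO against nonINS was 8 without replicates 2 and 6 of ieIRKO and 7 with only the groups compared in the fit. None was called between the insulin-treated groups. With insulin 2 of 5 tested T cell markers and 0 of 6 B and plasma cell markers were higher, and in ieIRKO against nonINS 4 of 5 and 3 of 6 were, at the summed levels given above. The part of these markers was not tested either. Sdf2l1, an ER co-chaperone, had the largest change with insulin at 1.10 on the log2 scale (edgeR adjusted p = 0.00136). Hspa5, the ER member of the HSP70 family (BiP), rose by 0.65 (edgeR adjusted p = 0.0374), and Hsp90b1, the ER member of the HSP90 family, rose by 0.49 (edgeR adjusted p = 0.0197). Their cytosolic relatives Hspa8 and Hsp90ab1 had log2 fold changes of -0.01 and -0.10 in the same comparison, with 95% confidence intervals of -0.30 to 0.29 and -0.39 to 0.20. Manf, Hyou1, Pdia4 and Canx rose by 0.68, 0.56, 0.51 and 0.44 with insulin (edgeR adjusted p = 0.0209, 0.0366, 0.0201 and 0.00942). Of the genes named here, Sdf2l1 and Canx passed in 15 of 15 alternatives, Manf, Pdia4 and Hsp90b1 in 13, Hspa5 in 7 and Hyou1 in 6.

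Immediate early genes, which respond within minutes to stimuli including handling, were listed because they are often induced beside heat shock genes. With insulin 5 of 10 fell, against 6.76% of all tested genes, and 5 of 10 were lower in ieIRKO than in nonINS, against 7.59%. Without nonINS replicate 1 these counts were 2 and 1. The summed level of the list was 2168 CPM in that library and 510 to 1192 CPM in the other nonINS libraries. Nr4a1 had a log2 fold change of -3.65 with insulin (edgeR adjusted p = 0.00258), and Dusp1 (-1.31), Ier2 (-0.72), Fos (-1.91) and Egr1 (-2.41) also fell (edgeR adjusted p = 0.00555, 0.0152, 0.0333 and 0.0369). Atf3 fell in ieIRKO against nonINS (-2.15, edgeR adjusted p = 0.0323). Nr4a1 and Dusp1 passed with insulin in 15 of 15 alternatives and Ier2 in 14, but Fos passed in 6 and Egr1 in 5 of 15, and Atf3 in 7 of 16. Without nonINS replicate 1, the log2 fold changes were -1.30 for Fos, -1.34 for Egr1 and -1.45 for Atf3.

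**Figure D5:**
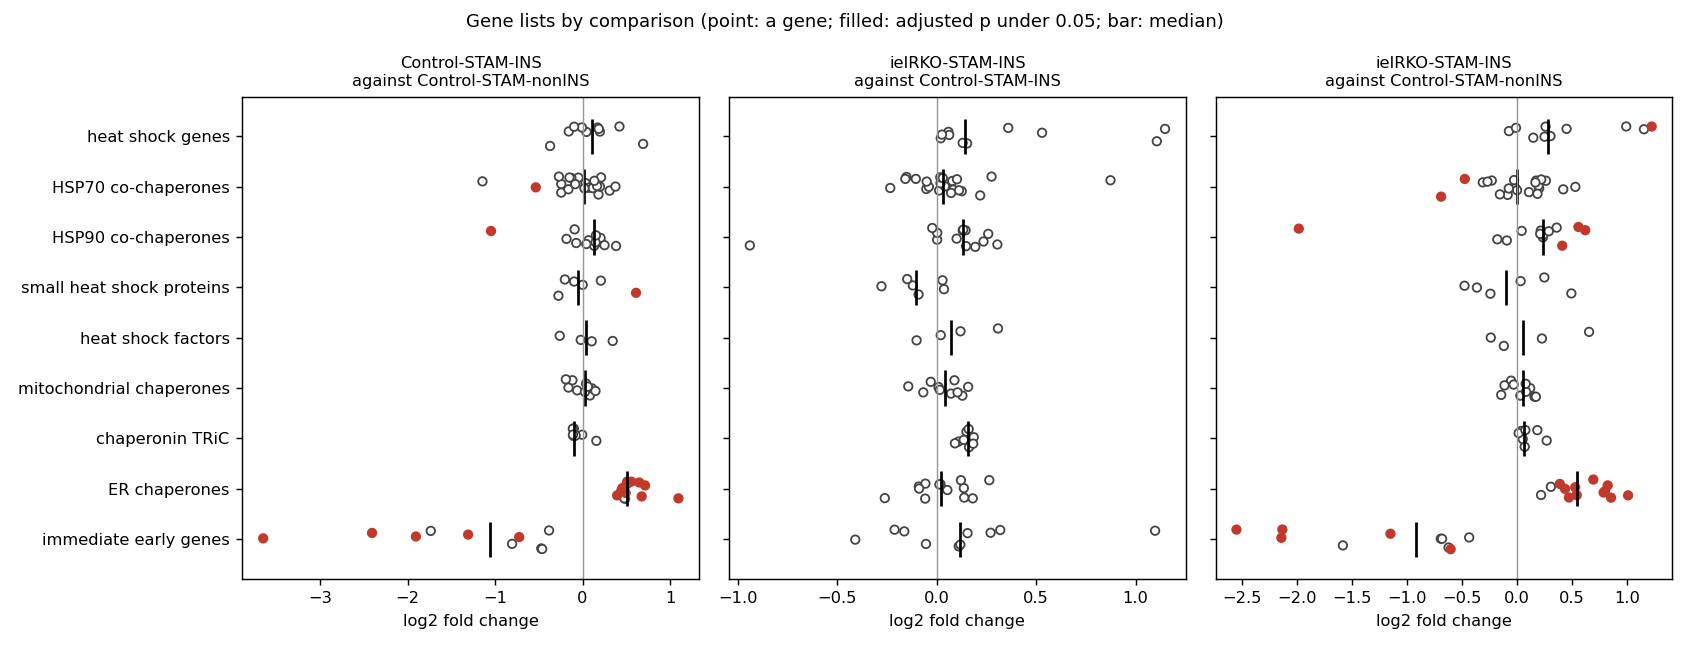
Log2 fold changes of single genes in 9 lists and 3 comparisons, with called genes filled and the median of each list as a bar. The ER chaperones lie to the right of 0 in both comparisons with nonINS and the immediate early genes to the left. The heat shock genes have medians of 0.11 and 0.14 in the first and second comparisons and 0.28 in ieIRKO against nonINS.

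Genes whose pattern was most like that of the heat shock genes were ranked by Pearson's r over 16 libraries with the mean standardised log2 CPM of the 8 cytosolic genes, among 9431 genes at 10 CPM or more. Ermp1 (r = 0.893), Dnaja1 (0.881), Chordc1 (0.844), Stat3 (0.813) and Tmem50b (0.812) led. Without replicates 2 and 6 of ieIRKO, the values for Dnaja1 and Chordc1 were 0.585 and 0.483, that for Stat3 was 0.660, and those for Ermp1 and Tmem50b were 0.821 and 0.826 over 14 libraries. For Hspd1 and Hspe1, the genes with the most similar pattern were Pdia6 (0.896), Pbdc1 (0.892), Nme1 (0.892), Cct3 (0.891) and Tsfm (0.882), and these values were 0.885 to 0.901 without the pair. The libraries share tissue makeup and normalisation, so these values describe likeness only.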

How the data were processed

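Whole ileal wall total RNA was sequenced on NovaSeq, and the authors aligned the reads to GRCm38 (mm10) in CLC Genomics Workbench and deposited whole-number counts per gene for each library. Strand use and the handling of multiply matching reads are not given in the sources used here, and this bears on Hspa1a against Hspa1b and on the overlapping Hspd1 and Hspe1. From the counts, genes were filtered with filterByExpr (minimum count 10), normalised by TMM and tested with edgeR 4.0.16 (quasi-likelihood, robust, all 16 libraries in 1 fit), with Benjamini-Hochberg adjustment over 15267 genes and a threshold of 0.05. CPM are normalised values. Confidence intervals used the degrees of freedom of each gene's test. For single genes, exact two-sided permutation tests on log2 CPM were run. The 3 comparisons share libraries. DESeq2 1.42.0, another scaling, no filter, only the groups compared, a replicate block and leaving out libraries were tried. The edgeR fit was tested on simulated counts with known changes, which were the same in all libraries of a group. Libraries within a group differed beyond sampling noise (lowest chi-square per degree of freedom 14.8 over 36 pairs), and each was taken as 1 mouse, as the study describes. P-values measure the spread among these mice. Genes named from the other lists were those called, at most 6 per list by smallest p, with Hsf1, Hspa9, Hspa5, Bag3 and Stip1 always, plus the 5 most similar genes for each profile. Genes singled out after their values were seen are said to be so in the text. The members and lists were chosen with earlier results of these data known.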

Additional observations from a re-analysis of the deposited data

How the results depend on the processing

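Each heat shock gene had 99 counts or more in each library, and counting error was not separated from the spread between mice. In ieIRKO against nonINS, 0 heat shock genes were called with no filter (Hsph1 adjusted p = 0.0874), with only the groups compared in the fit (0.135) and with a replicate block (0.0679), and the cause was not tested. That block changed no other call among the heat shock genes. No clear pairing by replicate number was seen: same-numbered libraries correlated at -0.09 to 0.18, with 4 of 14 pairs above 0.1. Of the 16 libraries, 3 correlated best with their own number. Whether the numbers reflect a shared cage or day of sampling was not tested. Over all genes, DESeq2 called 123 between the insulin-treated groups (65 higher and 58 lower) against 34 by edgeR (6 higher and 28 lower). With only the groups compared, 1038 were called between ieIRKO and nonINS against 2036. Leaving out each library gave 824 to 1877 genes with insulin, 29 to 50 between the insulin-treated groups and 1093 to 2274 between ieIRKO and nonINS, with the lowest counts with insulin and in the last comparison both without nonINS replicate 1. Heat shock genes called ranged from 0 to 1 with insulin and in the last comparison, where Hspe1 was called without nonINS replicate 3.

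Several log2 fold changes near 0 changed sign. With insulin, Hspa8 was at 0.0051 with DESeq2, 0.017 with upper-quartile scaling and 0.0063 with only the groups compared, and the sum of Hspa1a and Hspa1b was at 0.0076 with upper-quartile scaling and 0.038 with the replicate block. Hspb1 was at 0.032 with upper-quartile scaling in ieIRKO against nonINS. Leaving out single libraries gave, with insulin, -0.0031 to 0.37 for Hsp90aa1, -0.15 to 0.070 for the sum, -0.11 to 0.15 for Hspa1b and -0.10 to 0.084 for Hspa8. Between the insulin-treated groups it gave -0.066 to 0.14 for Dnajb1, -0.034 to 0.11 for Hsp90ab1 and -0.069 to 0.14 for Hspe1, and between ieIRKO and nonINS -0.21 to 0.12 for Hspb1. Leaving out replicates 2 and 6 of ieIRKO together, an alternative chosen after seeing the data, gave between the insulin-treated groups -0.66 for Hspa1a, -0.44 for Hspa1b, -0.50 for their sum, -0.032 for Hspa8, -0.16 for Hsp90aa1, -0.10 for Hsp90ab1, -0.17 for Hsph1 and -0.19 for Dnajb1. Against nonINS it gave -0.81 for Hspa1a, -0.39 for Hspa1b, -0.52 for their sum and -0.032 for Hspa8.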
